A study of Rattus norvegicus with 16 samples.

Results

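Aminoacyl-tRNA synthetases are the enzymes that attach each amino acid to its tRNA, the step known as tRNA charging. Among the 32623 genes of the count table, of which 22050 are protein-coding, 37 protein-coding genes were taken as members. They were chosen by symbol, as the amino acid's letter followed by ars with or without a final 1 or 2, together with Eprs, Farsa and Farsb. The 17 members whose symbols end in 2 were taken as mitochondrial and the other 20 as cytosolic. All 37 members had enough counts to be tested in every comparison.

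The cytosol and the mitochondrion translate with separate tRNAs, and in mammals most synthetases of the mitochondrion come from nuclear genes of their own. Gars and Kars, both counted here as cytosolic, are known to encode the enzymes of both compartments. Several cytosolic synthetases sit in a multisynthetase complex with scaffold proteins, and genes of cytosolic synthetases are known targets of Atf4, a transcription factor of the integrated stress response to amino acid shortage and other stresses.

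The data are RNA-seq counts from NRK-52E, a rat kidney epithelial line, and NRK-49F, a rat kidney fibroblast line. They were co-cultured, NRK-52E on a filter insert set into a well with NRK-49F, kept without serum for 24 h, and then held for 48 h in medium of pH 7.4 (control) or pH 6.0 (acidosis). The 16 libraries form 4 groups of 4, with N1, N2, N5 and N6 from NRK-52E at pH 7.4, N3, N4, N7 and N8 from NRK-52E at pH 6.0, N9, N10, N13 and N14 from NRK-49F at pH 7.4, and N11, N12, N15 and N16 from NRK-49F at pH 6.0. Values of a group are given in that order throughout.

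Depth ranged from 17760185 to 20612657 counted fragments per library in NRK-52E at pH 7.4, from 16844811 to 23856187 in NRK-52E at pH 6.0, from 17518187 to 27607214 in NRK-49F at pH 7.4, and from 16201084 to 34784862 in NRK-49F at pH 6.0. Levels are given as FPM, fragments of a gene per 1000000 counted fragments after TMM, a trimmed mean that sets the libraries to a common scale. They are not divided by gene length, so levels of different genes are not on 1 scale, and tests were made within a gene. A gene was called where the false discovery rate was below 0.01 in both edgeR and DESeq2, and “rose” or “fell” is used only of called genes. Log2 fold changes are from edgeR with their standard errors. The labels do not say whether the 4 libraries of a group came from separate cultures, so p-values measure the spread between these samples.

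Markers of the lines were read before the members. Krt8, a keratin, had the most fragments of 8 epithelial markers in all 16 libraries, with 387 to 462 FPM in NRK-52E and 782 to 947 FPM in NRK-49F at pH 7.4. Cdh1, the epithelial cadherin, had 1.59, 1.68, 1.87 and 1.33 FPM in NRK-52E at pH 7.4 and 0 in the 4 NRK-49F libraries at pH 7.4, and Epcam, Krt18, Cldn4 and Cdh16 had at most 0.315 FPM in any library. Pdgfra, a fibroblast receptor, had 0.164 to 0.415 FPM in NRK-52E and 339 to 447 FPM in NRK-49F at pH 7.4, and Col1a1 had 19.6 to 28.2 and 5644 to 6558 FPM. Col3a1, also a fibroblast marker, went the other way, with 6102 to 6318 FPM in NRK-52E and 399 to 612 FPM in NRK-49F. Esrp1, Thy1, Kdr and Ptprc had 0 counts in all 16 libraries, which allows up to 0.199 FPM (3 counts, counting error only). Most of the epithelial markers were thus at or near 0 in NRK-52E, while Pdgfra and Col1a1 separated the lines. Summed over each list, epithelial markers had 392 to 465 FPM at pH 7.4 and 294 to 354 at pH 6.0 in NRK-52E, and fibroblast markers 6163 to 6391 and 1840.0 to 3201. For NRK-49F these sums were 785 to 949 and 199 to 220.2 FPM, and 6501 to 7507 and 7651 to 9320.5 FPM. The fibroblast sum in NRK-49F is mostly fragments of Col1a1, which passed the threshold in DESeq2 but not in edgeR (0.40), while Col3a1 (-3.10), Lum (-2.06) and Pdgfrb (-2.01) fell. Of the epithelial markers, Krt8 fell in NRK-49F (-2.06). In NRK-52E, Cdh1 (-2.31), Krt19 (-1.63), Krt8 (-0.47), Dcn (-3.78), Pdgfrb (-1.53) and Col3a1 (-1.26) fell, and Col1a1 was not called (-0.41). Dcn was near 0 throughout, with 0.615 to 0.796 FPM at pH 7.4 against 0.041 to 0.061 FPM at pH 6.0. Cdh1 and Krt19 were also low at pH 6.0, with 0.122 to 0.492 and 0.615 to 1.16 FPM. Cd68, a lysosomal marker of leukocytes, rose in NRK-49F, with 62.3 to 97.1 FPM at pH 7.4 against 224 to 263 FPM at pH 6.0. In NRK-52E the leukocyte marker Lyz2 rose at low levels, with 0.410 to 0.843 against 2.57 to 4.42 FPM (log2 fold change 2.24). The part of these markers in the results was not tested.

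Acidosis separated the 2 classes of synthetases in NRK-52E. In the comparison of pH 6.0 with pH 7.4, 15 of 20 cytosolic members rose, against 28.2% of the 13735 genes tested, and none fell in edgeR (0 at unadjusted p below 0.05 and 0 in DESeq2), against 28.5% of all genes. Of 17 mitochondrial members, 1 rose and 7 fell. The median log2 fold change was 1.20 for cytosolic members, -0.39 for mitochondrial members and 0.0014 for all genes tested. In 13 of the 20 cytosolic members the increase was at least 1 on the log2 scale, against 2016 of the 13735 genes tested. Every library showed the split. Summed over the 20 cytosolic members, NRK-52E had 2253, 2125, 2036 and 2137 FPM at pH 7.4 against 6155, 5945, 5713 and 4604 FPM at pH 6.0. The 17 mitochondrial members together had 349, 346, 357 and 361 FPM at pH 7.4 and 271, 311, 305 and 299.9 FPM at pH 6.0. All 4 acid libraries lay above the control libraries in the cytosolic sum and below them in the mitochondrial sum, with N8 the lowest of the acid libraries in the cytosolic sum. N8 differed over all genes too, and without it 8914 of 13934 genes tested were called in place of 7793 of 13735. The cytosolic sum divided by the mitochondrial sum was 6.45, 6.15, 5.71 and 5.92 at pH 7.4 and 22.7, 19.1, 18.7 and 15.4 at pH 6.0. Such sums and ratios, here and below, weigh most the genes with many fragments, so they are not a measure of every member. Gars and Eprs had means of 176 and 235 FPM at pH 7.4 and of 974 and 957 FPM at pH 6.0. Iars2, with the most fragments of the mitochondrial members, had means of 79.4 and 61.6 FPM. In bulk RNA, fewer cells expressing a gene and less RNA per cell cannot be told apart.

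The scaling matters for where 0 lies. With library totals in place of TMM factors, the median of all genes tested in NRK-52E moved to -0.21, and the share of called genes that were higher went from 49.7% to 37.6%. The class medians were then 0.997 and -0.59, so the direction of both classes was the same under either scaling. Qars1 was then called lower (-0.27), Fars2 and Yars2 joined the called mitochondrial members (-0.63 and -0.52), and the call of Hars2 was lost (0.27).

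**Figure D1:**
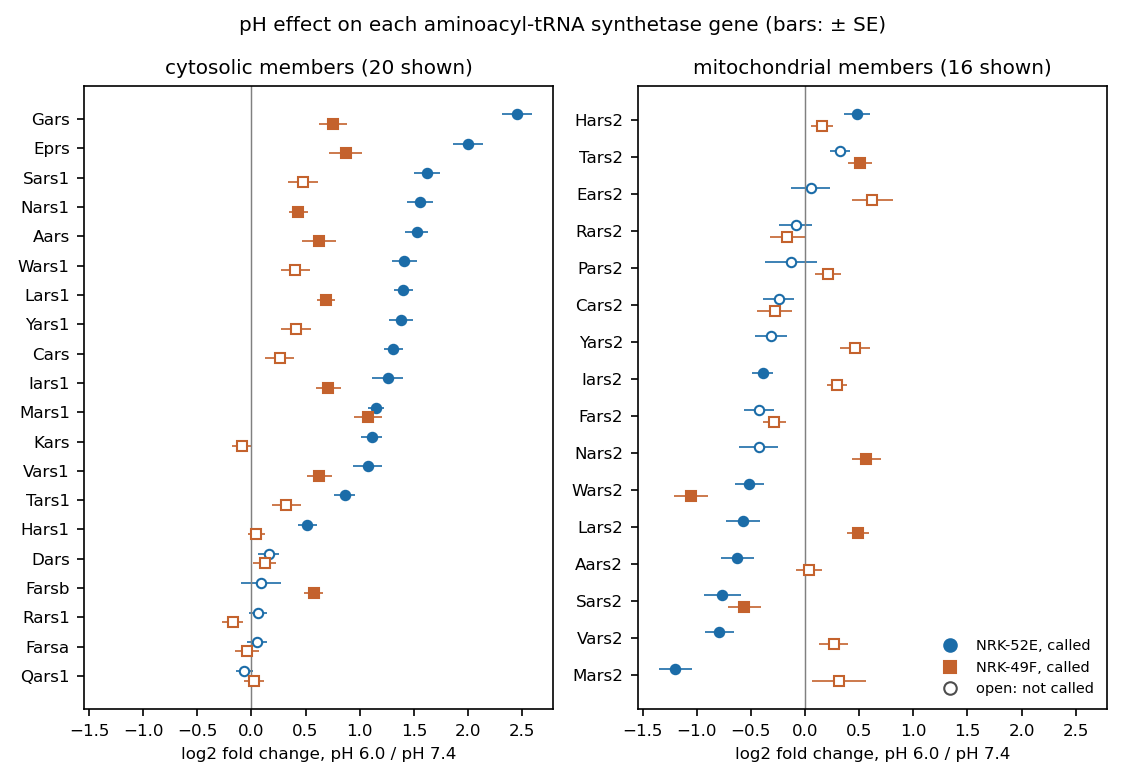
Log2 fold change of pH 6.0 against pH 7.4 for the 20 cytosolic and 16 of the 17 mitochondrial members in both lines, with bars of 1 standard error and filled dots for called genes. In NRK-52E, 15 cytosolic members were called higher and 7 mitochondrial members lower by TMM scaling; with library totals Qars1 was called lower as well.

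**Figure D2:**
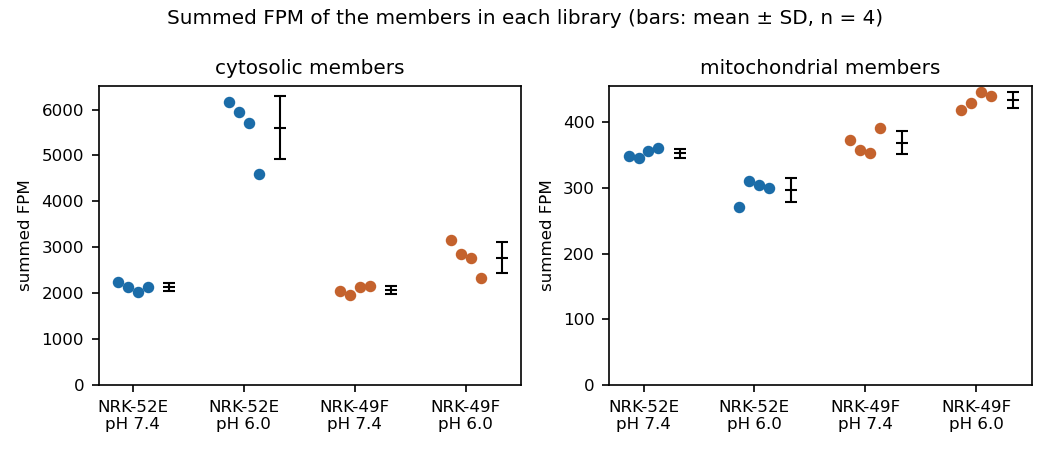
Summed FPM of the cytosolic and of the mitochondrial members in each of the 16 libraries, as points with the mean and standard deviation of each group of 4. The cytosolic sum had means of 2138 FPM (pH 7.4) and 5604 FPM (pH 6.0) for NRK-52E, and of 2074 and 2775 FPM for NRK-49F.

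Gars, the glycine enzyme (ENSRNOG00000011052, chromosome 4 of rn6), had the largest increase of the cytosolic members in NRK-52E. Its libraries had 191, 174, 165 and 172 FPM at pH 7.4 against 1185, 1014, 977 and 722 FPM at pH 6.0. All 4 acid libraries were far above every control library, with N8 the lowest and N3 the highest of them. The difference was 5.47-fold, a log2 fold change of 2.45 ± 0.140 (SE, n = 4 per group; edgeR quasi-likelihood, Benjamini-Hochberg adjusted p = 2.34e-07). Eprs, which joins the glutamate and proline enzymes in 1 protein (ENSRNOG00000002393, chromosome 13 of rn6), had 239.5, 241, 229 and 230.4 FPM at pH 7.4 against 1032, 1102, 1024 and 670.3 FPM at pH 6.0. The control libraries were close together and again N8 was the lowest acid library, still more than the highest control. The log2 fold change was 2.002 ± 0.139 (edgeR quasi-likelihood, Benjamini-Hochberg adjusted p = 6.47e-07). Sars1, the serine enzyme (ENSRNOG00000020255, chromosome 2 of rn6), had 196, 173, 150.2 and 175 FPM at pH 7.4 against 639.8, 543, 520.2 and 460.3 FPM at pH 6.0. The groups did not overlap, and Sars1 rose by a log2 fold change of 1.62 ± 0.118 (edgeR quasi-likelihood, Benjamini-Hochberg adjusted p = 9.11e-07). The asparagine enzyme Nars1 (ENSRNOG00000017852, chromosome 18 of rn6) had 132, 132, 126 and 130.4 FPM at pH 7.4 against 454, 402, 408 and 293 FPM at pH 6.0, and here too the groups were apart and N8 was the lowest acid library. It rose by 1.56 ± 0.121 on the log2 scale (edgeR quasi-likelihood, Benjamini-Hochberg adjusted p = 1.36e-06).

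The other 11 cytosolic members that rose in NRK-52E had log2 fold changes from 0.52 (Hars1, for histidine) to 1.53 (Aars, for alanine). Between them lay Wars1 (1.41), Lars1 (1.40), Yars1 (1.39), Cars (1.31), Iars1 (1.26), Mars1 (1.15), Kars (1.11), Vars1 (1.07) and Tars1 (0.86). In each of the 15 members that rose, all acid libraries lay above all control libraries. The call itself makes such separation likely, and its share over all genes is not given here, so it is not a separate result. The call of each of the 15 members held when any single library was left out.

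Mars1, the methionine enzyme (ENSRNOG00000025459, chromosome 7 of rn6), had 122, 117, 114 and 118 FPM at pH 7.4 against 254, 282, 264 and 259 FPM at pH 6.0. Its acid libraries were close to one another, and N8 was not the lowest of them. Mars1 rose by 1.15 ± 0.0717 on the log2 scale (edgeR quasi-likelihood, Benjamini-Hochberg adjusted p = 3.71e-07). Kars, for lysine (ENSRNOG00000019456, chromosome 19 of rn6), had 120.1, 117, 105 and 123 FPM at pH 7.4 against 283, 258, 264 and 213 FPM at pH 6.0. No control library reached the lowest acid library, N8, and the log2 fold change was 1.11 ± 0.0985 (edgeR quasi-likelihood, Benjamini-Hochberg adjusted p = 3.37e-06).

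In NRK-52E, 5 cytosolic members were not called. Qars1, the glutamine enzyme (ENSRNOG00000060912, chromosome 8 of rn6), had 158, 142, 139 and 148 FPM at pH 7.4 against 139, 143, 137 and 151 FPM at pH 6.0. The ranges overlapped, and the log2 fold change was -0.065 ± 0.0794 (edgeR quasi-likelihood, Benjamini-Hochberg adjusted p = 0.483). Farsa and Farsb encode the subunits of the phenylalanine enzyme. Farsa had 68.6, 63.4, 58.2 and 61.0 FPM at pH 7.4 against 67.6, 63.6, 62.5 and 69.6 FPM at pH 6.0, again with overlapping ranges and a log2 fold change of 0.050 ± 0.0890 (edgeR quasi-likelihood, Benjamini-Hochberg adjusted p = 0.632). Farsb had 38.3, 35.2, 33.3 and 37.2 FPM at pH 7.4 against 26.2, 38.0, 36.2 and 54.1 FPM at pH 6.0. Its lowest and its highest library were both acid libraries, N3 and N8, and its log2 fold change was 0.085 ± 0.186 (edgeR quasi-likelihood, Benjamini-Hochberg adjusted p = 0.698). Rars1, for arginine, had 145, 135, 134 and 149 FPM at pH 7.4 against 143, 144, 145 and 161 FPM at pH 6.0, and Dars, for aspartate, had 85.8, 80.6, 85.4 and 89.2 FPM at pH 7.4 against 83.8, 91.6, 101 and 109 FPM at pH 6.0. Both overlapped between the groups, with log2 fold changes of 0.056 for Rars1 and 0.16 for Dars. Leaving out single libraries gave 0.0052 to 0.080 for Rars1 and 0.083 to 0.21 for Dars. Without N8 the value of Farsb was -0.13, and with library totals Dars, Farsa, Farsb and Rars1 lay below 0 and were not called (-0.051, -0.16, -0.12 and -0.15).

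Of the mitochondrial members in NRK-52E, Mars2, which charges the methionine tRNA (ENSRNOG00000050002, chromosome 9 of rn6), fell most. Its libraries had 15.51, 18.6, 17.7 and 19.2 FPM at pH 7.4 against 7.22, 8.18, 9.43 and 6.63 FPM at pH 6.0. Every acid library was below every control library, and the lowest control library was N1. The log2 fold change was -1.20 ± 0.149 (SE, n = 4 per group; edgeR quasi-likelihood, Benjamini-Hochberg adjusted p = 3.98e-05). Vars2, for valine (ENSRNOG00000000833, chromosome 20 of rn6), had 33.3, 31.3, 33.1 and 28.7 FPM at pH 7.4 against 14.01, 19.9, 19.96 and 20.1 FPM at pH 6.0. The groups were apart, with N3 well below the other acid libraries, and Vars2 fell by 0.79 on the log2 scale (SE 0.134; edgeR quasi-likelihood, Benjamini-Hochberg adjusted p = 0.000343). Sars2, for serine (ENSRNOG00000019962, chromosome 1 of rn6), had 12.04, 7.99, 8.37 and 9.38 FPM at pH 7.4 against 5.69, 6.25, 5.74 and 4.84 FPM at pH 6.0. N1 was the highest control library, all acid libraries were lower than all controls, and the log2 fold change was -0.76 ± 0.172 (edgeR quasi-likelihood, Benjamini-Hochberg adjusted p = 0.00231). The calls of Mars2, Vars2 and Sars2 held when any single library was left out.

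The other 4 mitochondrial members that fell in NRK-52E lost their call when certain libraries were left out. Aars2, for alanine, had 21.6, 20.4, 23.3 and 19.8 FPM at pH 7.4 against 10.3, 17.3, 14.8 and 13.6 FPM at pH 6.0. The groups did not overlap and N3 was the lowest, and the log2 fold change was -0.63 ± 0.154 (edgeR quasi-likelihood, Benjamini-Hochberg adjusted p = 0.0039). Its call was lost without N5 (-0.60). Lars2, for leucine (ENSRNOG00000004760, chromosome 8 of rn6), had 15.3, 19.6, 20.6 and 22.3 FPM at pH 7.4 against 11.01, 14.7, 14.3 and 13.1 FPM at pH 6.0. All acid libraries were below all controls, N3 being the lowest acid and N1 the lowest control library, and the log2 fold change was -0.57 ± 0.154 (edgeR quasi-likelihood, Benjamini-Hochberg adjusted p = 0.00667). This call was lost without N2 or N5 (-0.57), N3 (-0.50), N6 (-0.52) and N7 (-0.60). Wars2, for tryptophan (ENSRNOG00000019508, chromosome 2 of rn6), had 10.1, 10.1, 11.4 and 10.3 FPM at pH 7.4 against 7.523, 8.23, 7.01 and 7.01 FPM at pH 6.0. Its groups were also apart, and the log2 fold change was -0.51 ± 0.138 (edgeR quasi-likelihood, Benjamini-Hochberg adjusted p = 0.00674). The Wars2 call was lost without N1 or N6 (-0.54), N2 (-0.53), N3 (-0.52), N5 (-0.49) and N7 (-0.47), and with no filter on low counts (-0.54). Iars2, for isoleucine, had 77.6, 77.2, 81.3 and 81.8 FPM at pH 7.4 against 54.1, 71.2, 64.1 and 56.8 FPM at pH 6.0. The acid values were spread more widely than the controls and lay below them, with a log2 fold change of -0.39 ± 0.0946 (edgeR quasi-likelihood, Benjamini-Hochberg adjusted p = 0.00365). The Iars2 call was lost without N6 (-0.40). Of 17 mitochondrial members, 8 were called with all libraries, 4 without N5 or without N6, 5 without N2 or without N7, and 10 without N8. Calls over all genes moved as well, from 7793 of 13735 with all libraries to 6881 of 13905 without N5, 6821 of 13902 without N6, 6789 of 13879 without N2, 7150 of 13914 without N7 and 8914 of 13934 without N8.

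Hars2, the mitochondrial histidine enzyme (ENSRNOG00000016087, chromosome 18 of rn6), was the mitochondrial member that rose in NRK-52E with TMM scaling. It had 25.7, 25.7, 27.7 and 27.2 FPM at pH 7.4 against 45.3, 34.8, 37.4 and 32.6 FPM at pH 6.0. All acid libraries were above the controls, N3 the most, and the log2 fold change was 0.48 ± 0.121 (edgeR quasi-likelihood, Benjamini-Hochberg adjusted p = 0.00466). The call was lost without N1 (0.45), N2 (0.46), N5 (0.48), N6 (0.47) and N7 (0.49). Its cytosolic partner Hars1 (ENSRNOG00000028105, chromosome 18 of rn6) had 75.0, 67.9, 59.2 and 65.6 FPM at pH 7.4 against 98.8, 98.3, 98.0 and 92.9 FPM at pH 6.0. Those acid libraries lay within a narrow range above all controls, and Hars1 rose by 0.52 ± 0.0862 on the log2 scale (edgeR quasi-likelihood, Benjamini-Hochberg adjusted p = 0.000314). Tars2, for threonine, had 36.1, 32.0, 31.8 and 31.1 FPM at pH 7.4 against 43.1, 41.4, 39.1 and 42.2 FPM at pH 6.0, with no overlap, but its log2 fold change of 0.32 ± 0.0944 missed edgeR's threshold (edgeR quasi-likelihood, Benjamini-Hochberg adjusted p = 0.0106) and was called without N8 (0.30). Ears2, for glutamate, had 5.95, 6.80, 5.93 and 7.19 FPM at pH 7.4 against 5.44, 6.79, 8.69 and 6.25 FPM at pH 6.0, which overlapped and gave a log2 fold change of 0.052 ± 0.178 (edgeR quasi-likelihood, Benjamini-Hochberg adjusted p = 0.806). The other 7 mitochondrial members that were not called had log2 fold changes from -0.43 (Nars2) to -0.085 (Rars2). Of these, Fars2 (-0.42) was called without N8 (-0.48).

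The column labels of the count table carry a second number, 21 or 22 in NRK-52E, whose meaning is not given. Each number holds 2 control and 2 acid libraries. The cytosolic median in NRK-52E was 1.27 within number 21 and 1.13 within number 22, with 14 and 12 of 20 members called. The mitochondrial median was -0.40 and -0.29, with 2 and 0 of 17 called. Of all genes tested, 5244 of 13903 were called within number 21 and 2820 of 13952 within number 22. With the number as a covariate, 15 cytosolic and 8 mitochondrial members were called, against 7551 of the 13735 genes tested.

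In NRK-49F the cytosolic members moved less and the mitochondrial members differently. At pH 6.0, 9 of 20 cytosolic members rose, against 18.4% of the 13339 genes tested, and 0 fell in edgeR (0 at unadjusted p below 0.05 and 0 in DESeq2), against 19.4% of all genes. Of 17 mitochondrial members, 4 rose and 2 fell. The median log2 fold change was 0.42 for cytosolic members, 0.27 for mitochondrial members and -0.0029 for all genes tested. The cytosolic sum was 2039, 1966, 2126 and 2166 FPM at pH 7.4 and 3161, 2849, 2758 and 2332 FPM at pH 6.0. The mitochondrial sum was 373, 359, 353 and 392 FPM at pH 7.4 and 419, 429, 447 and 441 FPM at pH 6.0. Both sums were higher in all acid libraries than in all controls, and N16 was the lowest acid library in the cytosolic sum. The cytosolic sum divided by the mitochondrial sum was 5.46, 5.48, 6.02 and 5.53 at pH 7.4 and 7.55, 6.64, 6.18 and 5.29 at pH 6.0, with N16 below all controls.

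Mars1 had the largest increase in NRK-49F, with 94.2, 91.9, 96.6 and 105 FPM at pH 7.4 against 252, 207, 206 and 158 FPM at pH 6.0. The acid libraries were all above the controls, from N16 at the bottom to N11 at the top. The difference was 2.11-fold, a log2 fold change of 1.07 ± 0.128 (SE, n = 4 per group; edgeR quasi-likelihood, Benjamini-Hochberg adjusted p = 2.81e-05). Eprs had 101, 96.2, 101 and 109 FPM at pH 7.4 against 240.2, 203, 169 and 137 FPM at pH 6.0. The order of the acid libraries was again N11, N12, N15 and N16 from high to low, without overlap with the controls, and the log2 fold change was 0.87 ± 0.149 (edgeR quasi-likelihood, Benjamini-Hochberg adjusted p = 0.000417). Gars had 151, 142, 158 and 155 FPM at pH 7.4 against 317, 274, 235 and 202 FPM at pH 6.0, in the same order and apart from its controls. It rose by 0.75 ± 0.131 on the log2 scale (edgeR quasi-likelihood, Benjamini-Hochberg adjusted p = 0.00047). Lars1, the leucine enzyme (ENSRNOG00000018304, chromosome 18 of rn6), had 89.6, 84.7, 90.2 and 85.8 FPM at pH 7.4 against 152, 141, 139 and 139 FPM at pH 6.0. Its acid libraries were closer together and above all controls, with a log2 fold change of 0.69 ± 0.0808 (edgeR quasi-likelihood, Benjamini-Hochberg adjusted p = 2.45e-05). The other cytosolic members that rose were Iars1 (0.71), Vars1 (0.63), Aars (0.62), Farsb (0.58) and Nars1 (0.43). The call of Aars, whose acid libraries overlapped the controls, was lost without N9 (0.56), N10 (0.57), N11 (0.50), N12 (0.61), N13 (0.62) and N15 (0.64).

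Farsb was the cytosolic member that rose in NRK-49F and was not called in NRK-52E. It had 42.5, 43.5, 45.0 and 42.1 FPM at pH 7.4 against 67.8, 66.8, 63.9 and 62.0 FPM at pH 6.0 in NRK-49F. The acid libraries lay within a narrow range above all controls, and the log2 fold change was 0.58 ± 0.0865 (edgeR quasi-likelihood, Benjamini-Hochberg adjusted p = 0.000158). Its partner subunit Farsa had 64.6, 55.8, 65.6 and 67.4 FPM at pH 7.4 against 62.7, 59.4, 74.3 and 52.8 FPM at pH 6.0, which overlapped, with a log2 fold change of -0.039 ± 0.110 (edgeR quasi-likelihood, Benjamini-Hochberg adjusted p = 0.784). The lowest log2 fold change of the cytosolic members in NRK-49F was that of Rars1, which had 81.7, 82.3, 91.7 and 73.4 FPM at pH 7.4 against 75.4, 77.7, 74.0 and 67.8 FPM at pH 6.0. The groups overlapped, and the value was -0.17 ± 0.0978 (edgeR quasi-likelihood, Benjamini-Hochberg adjusted p = 0.153). Kars had 169, 164, 181 and 169 FPM at pH 7.4 against 175, 169, 168 and 139 FPM at pH 6.0. N16 was below all its controls and the other acid libraries lay among them, at a log2 fold change of -0.086 ± 0.0952 (edgeR quasi-likelihood, Benjamini-Hochberg adjusted p = 0.466).

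In NRK-49F the column labels carry the numbers 20 and 21. Within number 20 the cytosolic median was 0.68 with 14 of 20 called, and within number 21 it was 0.22 with 1 called (Mars1). The mitochondrial median was 0.18 with 3 of 17 called in number 20 and 0.29 with 2 called in number 21. Fewer genes were called in number 21 altogether, 1980 of 13861 tested against 4680 of 13379 in number 20. With the number as a covariate, 9 cytosolic and 6 mitochondrial members were called, against 5211 of the 13339 genes tested. Left out alone, N16 moved the cytosolic count to 13, since Cars, Sars1, Wars1 and Yars1 were then called higher (0.38, 0.61, 0.50 and 0.50). Over all genes, 4946 of 13454 were called without N16, against 5039 of 13339 with all libraries. Yars1 was also called without N13 (0.52), as was mitochondrial Yars2 (0.59), with 4992 of 13555 genes called over all. What differs between the numbers is not stated, and its part in the result was not tested.

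Of the mitochondrial members in NRK-49F, Nars2, for asparagine (ENSRNOG00000011476, chromosome 1 of rn6), had 9.66, 7.38, 8.63 and 8.86 FPM at pH 7.4 against 12.8, 13.3, 12.9 and 12.6 FPM at pH 6.0. The acid libraries were close together above the controls, and the log2 fold change was 0.56 ± 0.134 (SE, n = 4 per group; edgeR quasi-likelihood, Benjamini-Hochberg adjusted p = 0.00368). The call of Nars2 was lost without N10 (0.50), N12 (0.55) and N15 (0.58). Tars2 had 36.8, 34.8, 41.9 and 39.1 FPM at pH 7.4 against 54.3, 57.0, 61.8 and 46.3 FPM at pH 6.0, without overlap, and rose by 0.51 ± 0.110 on the log2 scale (edgeR quasi-likelihood, Benjamini-Hochberg adjusted p = 0.00204). Lars2, which fell in NRK-52E, had 28.0, 26.0, 22.6 and 23.5 FPM at pH 7.4 against 33.9, 34.9, 35.4 and 37.3 FPM at pH 6.0 in NRK-49F. All 4 acid libraries were above all controls, and the log2 fold change was 0.49 ± 0.102 (edgeR quasi-likelihood, Benjamini-Hochberg adjusted p = 0.00168). Ears2 had 3.43, 4.80, 4.02 and 3.518 FPM at pH 7.4 against 5.62, 6.43, 6.99 and 5.50 FPM at pH 6.0. Its groups were apart at low counts, and its log2 fold change of 0.62 ± 0.189 was called by DESeq2 but not by edgeR (edgeR quasi-likelihood, Benjamini-Hochberg adjusted p = 0.0152).

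Wars2 and Sars2 fell in NRK-49F as they had in NRK-52E. Wars2 had 16.4, 19.7, 17.5 and 18.6 FPM at pH 7.4 against 8.06, 11.1, 7.28 and 8.98 FPM at pH 6.0. All acid libraries were below all controls, N15 the lowest, and the log2 fold change was -1.05 ± 0.156 (edgeR quasi-likelihood, Benjamini-Hochberg adjusted p = 0.000146). Sars2 had 14.7, 11.02, 11.9 and 15.54 FPM at pH 7.4 against 7.79, 9.62, 9.91 and 9.10 FPM at pH 6.0. The groups were apart but the control libraries were spread, and the log2 fold change was -0.56 ± 0.152 (edgeR quasi-likelihood, Benjamini-Hochberg adjusted p = 0.00828). The Sars2 call in NRK-49F was lost without N9 (-0.52), N11 (-0.49), N12 or N15 (-0.59), N14 (-0.48) and N16 (-0.55), with library totals (-0.52) and with no filter on low counts (-0.55). With library totals, calls were gained in NRK-49F for Sars1 (0.52), Ears2 (0.66) and Yars2 (0.51). The other mitochondrial members that were not called had log2 fold changes from -0.28 (Fars2) to 0.46 (Yars2), besides Ears2.

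The interaction test asked, over all 16 libraries, whether the pH effect differed between the lines, and its value is the log2 fold change in NRK-52E minus that in NRK-49F. Of 20 cytosolic members, 11 were called with an effect that was higher in NRK-52E, against 19.3% of the 14679 genes tested, and 0 were called lower there by edgeR (1, Farsb, at unadjusted p below 0.05, and 0 in DESeq2), against 17.5%. Of 17 mitochondrial members, 8 were called lower and 0 higher by edgeR (1, Wars2, at unadjusted p below 0.05, and 0 in DESeq2). With the number of the column labels as covariate, 11 cytosolic and 7 mitochondrial members were called, Aars2 being the one lost (-0.68). Over all genes, 5268 of 14679 were called with this covariate. The median interaction was 0.62 for cytosolic members, -0.58 for mitochondrial members and -0.014 for all genes tested. With library totals, the median of all genes was -0.25, the share of called genes that were higher went from 52.4% to 33.8%, and the class medians were 0.38 and -0.81, with the same directions.

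Gars had the largest interaction of the cytosolic members, 1.69 ± 0.199 (SE, n = 4 per group; edgeR quasi-likelihood, Benjamini-Hochberg adjusted p = 2.02e-06). NRK-52E had 165 to 191 FPM at pH 7.4 against 722 to 1185 FPM at pH 6.0, whereas NRK-49F had 142 to 158 FPM against 202 to 317 FPM. For Kars the values were 105 to 123 FPM against 213 to 283 FPM in NRK-52E, and 164 to 181 FPM against 139 to 175 FPM in NRK-49F. Its interaction was 1.18 ± 0.137 (edgeR quasi-likelihood, Benjamini-Hochberg adjusted p = 1.75e-06). Sars1 had an interaction of 1.13 ± 0.192 (edgeR quasi-likelihood, Benjamini-Hochberg adjusted p = 9.86e-05), with 124, 120.1, 138 and 139 FPM at pH 7.4 against 218, 191, 192 and 131 FPM at pH 6.0 in NRK-49F. In that line 1 acid library, N16, lay among its controls and the other 3 were above them. The other called cytosolic members were Eprs (1.13), Nars1 (1.12), Cars (1.04), Wars1 (0.997), Yars1 (0.96), Aars (0.90), Lars1 (0.70) and Hars1 (0.46). The call of Aars was lost without N3 (0.75), and that of Hars1 without N3 (0.34), with library totals (0.22) and with protein-coding genes alone (0.35); Aars was also not called with library totals (0.65), while Farsb was then called lower (-0.74). The other 2 settings also moved the median of all genes, to -0.12 without N3 and -0.12 with protein-coding genes alone. Without N8, calls were added for Iars1 (0.68), Vars1 (0.56) and Farsb (-0.72), and Tars1 was called without N1 or N9 or N11 (0.60). Over all genes, 5952 of 14916 were called without N8, against 5412 of 14679 with all libraries. Without N1, N9 and N11 in turn, 5233 of 14907, 4922 of 14955 and 5090 of 14946 were called. Mars1 rose in both lines and its interaction was 0.064 ± 0.151 (edgeR quasi-likelihood, Benjamini-Hochberg adjusted p = 0.757), with a range of -0.048 to 0.18 when single libraries were left out.

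Mars2 had the most negative interaction, -1.5200 ± 0.285 (edgeR quasi-likelihood, Benjamini-Hochberg adjusted p = 0.000256). It fell in NRK-52E, while NRK-49F had low levels at both pH values, 3.26, 3.23, 2.04 and 3.76 FPM at pH 7.4 against 3.50, 2.65, 4.35 and 4.88 FPM at pH 6.0. Those values overlapped between the groups. Vars2 had 29.4, 24.4, 24.8 and 36.0 FPM at pH 7.4 against 32.5, 30.9, 35.3 and 40.3 FPM at pH 6.0 in NRK-49F, overlapping, and it fell in NRK-52E, with an interaction of -1.07 ± 0.198 (edgeR quasi-likelihood, Benjamini-Hochberg adjusted p = 0.000232). Lars2 fell in NRK-52E and rose in NRK-49F, and was the member called in opposite directions in the lines. Its interaction was -1.07 ± 0.179 (edgeR quasi-likelihood, Benjamini-Hochberg adjusted p = 8.55e-05). Also called were Nars2 (-0.999), Yars2 (-0.79), Iars2 (-0.69) and Aars2 (-0.68). The call of Aars2 was lost without N1 (-0.67), N2 or N7 or N11 or N16 (-0.70), N5 (-0.63), N6 (-0.72), N8 (-0.66), N9 (-0.69), N10 (-0.65), N12 (-0.64), N13 (-0.60) and N15 (-0.68). Wars2, which fell in both lines, had an interaction of 0.53 ± 0.201 that was not called (edgeR quasi-likelihood, Benjamini-Hochberg adjusted p = 0.036).

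**Figure D3:**
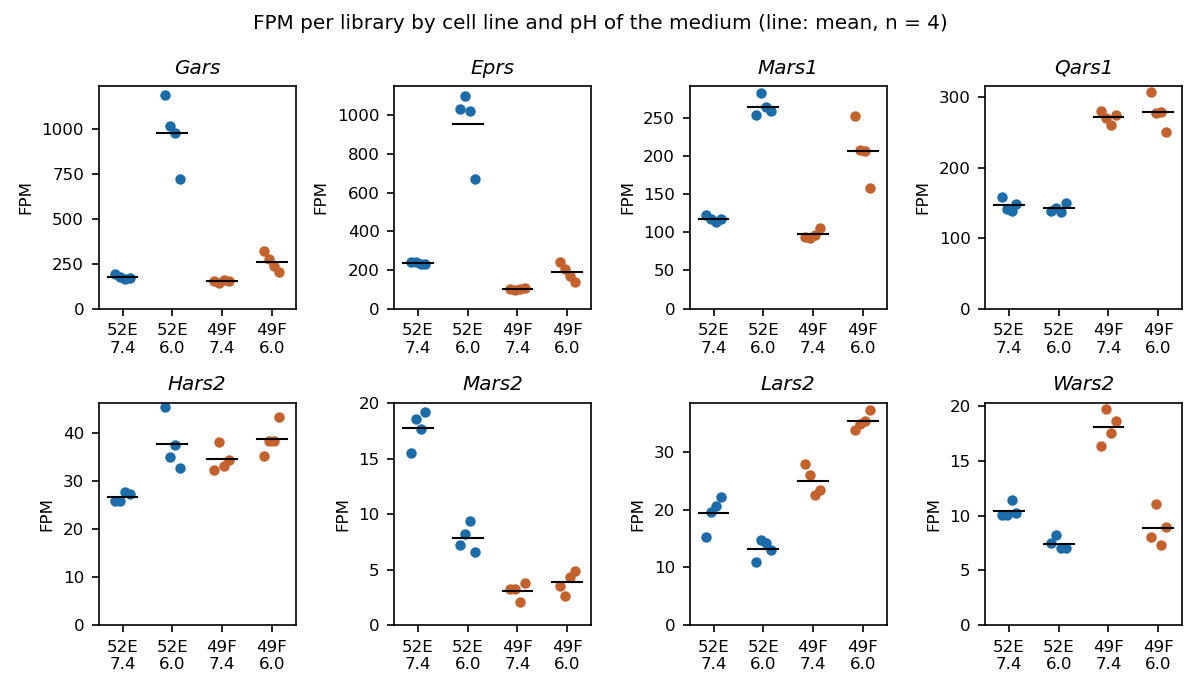
FPM of Gars, Eprs, Mars1, Qars1, Hars2, Mars2, Lars2 and Wars2 in each library of the 4 groups, as points with a line at the group mean. Gars lay between 722 and 1185 FPM in NRK-52E at pH 6.0 and between 202 and 317 FPM in NRK-49F at pH 6.0.

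Compared at pH 7.4, the lines showed no common direction for either class. At both pH values the line cannot be told apart from the growth surface, a filter insert for NRK-52E and the well for NRK-49F. The numbers of the column labels also differed in part, 21 and 22 in NRK-52E and 20 and 21 in NRK-49F. Of 20 cytosolic members, 8 were higher and 4 lower in NRK-52E than in NRK-49F, against 33.3% and 33.3% of the 14026 genes tested. Of 17 mitochondrial members, 4 were higher and 3 lower. The medians of NRK-52E against NRK-49F were 0.089 for cytosolic and 0.14 for mitochondrial members. Without N10, N1, N13 and N14 in turn the cytosolic median was 0.022, 0.050, 0.13 and 0.15, and the mitochondrial median was 0.070 without N1 and 0.082 without N13. With library totals the median of all genes moved from 0.029 to 0.34, and the share of called genes that were higher from 50% to 65.7%. The class medians moved to 0.40 and 0.44. With that scaling 15 cytosolic and 11 mitochondrial members were called, against 9698 of the 14026 genes tested (9338 with TMM). Single members differed clearly. Mars2 had 15.51, 18.6, 17.7 and 19.2 FPM in NRK-52E and 3.26, 3.23, 2.04 and 3.76 FPM in NRK-49F at pH 7.4. The NRK-52E libraries were all several times higher, at a log2 fold change of 2.60 ± 0.175 (edgeR quasi-likelihood, Benjamini-Hochberg adjusted p = 9.16e-08). Fars2, for phenylalanine (ENSRNOG00000016135, chromosome 17 of rn6), had 13.54, 13.2, 12.4 and 12.3 FPM in NRK-52E and 32.0, 34.4, 35.6 and 35.1 FPM in NRK-49F. Here NRK-49F was the higher line in every library, at a log2 fold change of -1.33 ± 0.0877 (edgeR quasi-likelihood, Benjamini-Hochberg adjusted p = 7.49e-08). Eprs was higher in NRK-52E (1.29 ± 0.0665; edgeR quasi-likelihood, Benjamini-Hochberg adjusted p = 8.43e-09). Cars, the cysteine enzyme, had 54.7, 52.2, 47.0 and 53.5 FPM in NRK-52E and 127, 118, 126 and 137 FPM in NRK-49F. It was lower in every NRK-52E library (-1.21 ± 0.0752; edgeR quasi-likelihood, Benjamini-Hochberg adjusted p = 4.32e-08).

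At pH 6.0 the classes parted between the lines. In NRK-52E against NRK-49F, 12 of 20 cytosolic members were higher and 2 lower, against 28.6% and 31.3% of the 13796 genes tested, and 3 of 17 mitochondrial members were higher and 10 lower. The medians were 0.85 for cytosolic and -0.63 for mitochondrial members. With library totals the median of all genes was 0.12 in place of -0.027. The mitochondrial count of 13 called was 8 without N7 or without N12, and calls over all genes went from 8251 of 13796 to 7516 of 13924 and 7714 of 14134. Eprs had the largest difference, 2.33 ± 0.200 (edgeR quasi-likelihood, Benjamini-Hochberg adjusted p = 5.52e-07), and Qars1, not called for pH in either line, was lower in NRK-52E at pH 6.0 (-0.99 ± 0.101; edgeR quasi-likelihood, Benjamini-Hochberg adjusted p = 2.74e-06). Qars1 was already called lower in NRK-52E at pH 7.4 (-0.81 ± 0.0665). Lars2 was lower in NRK-52E at pH 6.0 (-1.43 ± 0.132; edgeR quasi-likelihood, Benjamini-Hochberg adjusted p = 1.08e-06), with 11.01 to 14.7 FPM in NRK-52E and 33.9 to 37.3 FPM in NRK-49F. Mars2 was higher in NRK-52E there as well (1.003 ± 0.231; edgeR quasi-likelihood, Benjamini-Hochberg adjusted p = 0.00191). These comparisons share libraries with the pH comparisons and are not independent of them.

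The pH comparisons of the lines use different libraries and can be set side by side. The lines were co-cultured, and the labels do not say which libraries came from the same well. Of the cytosolic members, 8 rose in both lines, 7 in NRK-52E and not in NRK-49F, 1 (Farsb) in NRK-49F and not in NRK-52E, and 4 (Dars, Farsa, Qars1 and Rars1) in neither. Of the 12470 genes tested in both lines, these shares were 9.46%, 19.8%, 9.21% and 61.6%. Of the mitochondrial members, 2 (Sars2 and Wars2) fell in both lines, 4 fell in NRK-52E without a call in NRK-49F, and 1 (Lars2) was called in opposite directions, against 10%, 15% and 4.28% of all these genes. The log2 fold change was larger in NRK-52E for 18 of 20 cytosolic members and for 4 of 17 mitochondrial members, against 50.8% of all these genes. Genes are not independent replicates. Taken across them, the Pearson correlation of the log2 fold changes in the lines was 0.651 over the 20 cytosolic and 0.207 over the 17 mitochondrial members (Spearman 0.635 and 0.206).

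Members for the same amino acid form 18 pairings of a cytosolic with a mitochondrial member, with Eprs set against both Ears2 and Pars2 and Fars2 against both Farsa and Farsb. In NRK-52E the cytosolic member had the larger log2 fold change in 18 of 18 pairings, by a median of 1.78. The difference was smallest for Hars1 over Hars2 (0.038) and largest for Sars1 over Sars2 (2.39), followed by Mars1 over Mars2 (2.35) and Aars over Aars2 (2.15). In NRK-49F the cytosolic member was ahead in 12 of 18 pairings. The median difference over all 18 pairings was 0.31, and the largest was 1.46, for Wars1 over Wars2. Gars, Kars and Qars1 have no mitochondrial member to pair with. Without Gars and Kars, 13 of 18 cytosolic members rose in NRK-52E and 8 of 18 in NRK-49F, with medians of 1.20 and 0.42, against 28.2% and 18.4% of all genes tested.

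Of the cytosolic members, 8 are enzymes of the multisynthetase complex (Dars, Eprs, Iars1, Kars, Lars1, Mars1, Qars1 and Rars1) and 12 are not. In NRK-52E, 5 of 8 complex enzymes rose with a median log2 fold change of 1.13, and 10 of 12 enzymes outside it rose with a median of 1.35, against 28.2% of all genes tested. In NRK-49F, 4 of 8 complex enzymes rose (median 0.41) and 5 of 12 outside it (median 0.42), against 18.4% of all genes tested. Of the 3 scaffold genes of the complex, Aimp1 rose in NRK-52E, with 46.8, 41.5, 35.7 and 42.2 FPM at pH 7.4 against 55.0, 52.3, 54.4 and 66.4 FPM at pH 6.0 (0.44 ± 0.117; edgeR quasi-likelihood, Benjamini-Hochberg adjusted p = 0.0061). Eef1e1 rose in both lines (NRK-52E 0.57, NRK-49F 0.64). Aimp2 was not called in either line (-0.030 and -0.19). Synthetases also fall into structural classes by the fold of their catalytic domain, and Eprs, which holds both, was left out of that split. In NRK-52E, 7 of 9 cytosolic class I members rose (median 1.26) and 7 of 10 of class II (median 0.98), against 28.2% of all genes. Of the mitochondrial members, 5 of 9 of class I fell, and of 8 of class II 2 fell and 1 rose, against 28.5% lower and 28.2% higher of all genes. In NRK-49F, 4 of 9 cytosolic class I and 4 of 10 class II members rose, against 18.4%.

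Another 12 genes of tRNA charging lie outside the naming rule. In NRK-52E, 11 of them were tested, and 4 rose and 1 fell, against 28.2% and 28.5% of all genes. Those that rose were Qrsl1 (1.57) and Gatc (0.78), subunits of the amidotransferase that makes mitochondrial glutamine tRNA, Mtfmt (1.09), which formylates the initiator methionine of mitochondria, and Aarsd1 (1.05), an editing enzyme. The amidotransferase subunit Gatb fell (-0.92). In NRK-49F, of 12 tested, Tars3 (1.002), Qrsl1 (0.92), Aarsd1 (0.83) and Mtfmt (0.64) rose, and Dtd2 (-1.21), Gatb (-0.79) and Dtd1 (-0.67) fell, against 18.4% higher and 19.4% lower of all genes. In NRK-52E, Qrsl1 had 7.92, 5.82, 7.13 and 6.62 FPM at pH 7.4 against 21.3, 20.9, 20.8 and 19.7 FPM at pH 6.0, and Gatb had 24.1, 21.5, 24.7 and 25.04 FPM at pH 7.4 against 12.05, 13.8, 11.97 and 13.4 FPM at pH 6.0. The acid libraries were all above the controls for Qrsl1 and all below them for Gatb, although both are subunits of the same enzyme. Dtd2 had 0 counts in all 8 NRK-52E libraries, which allows up to 0.183 FPM, and 9.43, 12.2, 15.01 and 11.3 FPM in NRK-49F at pH 7.4.

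Of 5 cytosolic elongation factors, Eef1a1 (0.46) and Eef1g (0.67) rose in NRK-52E, where 28.2% of all genes were higher and 28.5% lower. In NRK-49F 0 of 5 were called in edgeR in either direction, with 0 higher and 1 lower (Eef1d) at unadjusted p below 0.05 and 0 in DESeq2. Of 9 mitochondrial translation factors in NRK-52E, 1 rose (Tsfm, 0.63) and 4 fell: Mtif3 (-1.10), Mrrf (-1.09), Mtrf1 (-0.78) and Gfm1 (-0.37). In NRK-49F, Gfm2 (0.68), Tsfm (0.55) and Gfm1 (0.44) rose, and Mrrf (-1.23) and Mtif3 (-0.68) fell. The shares of all genes in that line were 18.4% higher and 19.4% lower. Gfm1, an elongation factor of mitochondria, thus joined Lars2 in being called lower in NRK-52E and higher in NRK-49F. The mitochondrial factors had a median of -0.21 (NRK-52E) and -0.013 (NRK-49F).

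Of 8 genes of the integrated stress response, 8 rose in NRK-52E (median 2.91) and 3 in NRK-49F (median 0.29), and 8 of 8 had a called positive interaction, against 28.2%, 18.4% and 19.3% of all genes tested. Atf4 had 288, 237, 217 and 239.9 FPM at pH 7.4 against 1189, 816, 816 and 792 FPM at pH 6.0 in NRK-52E. Its acid libraries were all above the controls, N3 the highest and N8 the lowest. It rose by 1.86 ± 0.151 on the log2 scale (edgeR quasi-likelihood, Benjamini-Hochberg adjusted p = 1.82e-06). In NRK-49F Atf4 had 209.7, 213, 253 and 229 FPM at pH 7.4 against 306, 307, 274 and 209 FPM at pH 6.0. N16 lay at the level of the lowest control and the other 3 acid libraries above all controls, and the gene was not called (0.26 ± 0.130; edgeR quasi-likelihood, Benjamini-Hochberg adjusted p = 0.105). Asns, which makes asparagine, rose in NRK-52E (3.22) and in NRK-49F (0.61), as did Trib3 (4.81 and 1.75) and Atf3 (4.66 and 2.79). Summed over the list, N8 was the lowest acid library of NRK-52E (1572 FPM, others 1847 to 2758) and N16 the lowest of NRK-49F (392 FPM, others 517 to 595), the same libraries that were lowest in the cytosolic synthetase sum. The part of the stress response in the synthetase values was not tested.

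Of the 37 members, 6 overlap another protein-coding gene in the RefSeq annotation of GRCr8: Mars1 (with Ddit3), Aars (Ddx19b), Yars1 (S100pbp), Mars2 (Boll), Rars2 (Orc3 and Slc35a1) and Sars2 (Ccer2 and LOC103689966). The counting options given in the methods set neither strand nor the handling of fragments over 2 genes. By default featureCounts ignores strand and leaves such fragments out, so reads of overlapping genes may not have been kept apart. In NRK-52E Ddit3, the neighbour of Mars1, had 45.0, 39.0, 36.5 and 44.7 FPM at pH 7.4 against 299, 179, 198 and 199.7 FPM at pH 6.0. In NRK-49F it had 44.9, 43.1, 59.7 and 47.8 FPM at pH 7.4 against 61.8, 71.7, 68.4 and 44.3 FPM at pH 6.0. It rose in NRK-52E (2.39), while Mars1 rose in both lines. Fragments that map to several places were also counted, so near-identical copies share counts.

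The sequences before the members' starts were read for the element TGATGNAAN, to which Atf4 binds together with a C/EBP factor, on both strands of 250 bases before to 50 bases after each start. Promoters from RefSeq (build GRCr8) were matched to 33 of 37 members, 17 cytosolic and 16 mitochondrial. Of the cytosolic members, Dars, Gars and Rars1 had none. The element was present in 7 of 17 cytosolic members (41.2%), namely Aars, Cars, Iars1, Mars1, Nars1, Tars1 and Yars1, and in 0 of 16 mitochondrial members. Of all 33469 promoters of the table, 1328 (3.97%) had it, and of the 21851 promoters of protein-coding genes, 730 (3.34%). In NRK-52E, 7 of 7 cytosolic members with the element rose (median 1.31), and 7 of 10 without it (median 1.09), Farsa, Farsb and Qars1 being those not called, against 28.2% of all genes tested. In NRK-49F, 4 of 7 with the element (median 0.43) and 4 of 10 without it (median 0.44) rose, against 18.4% of all genes. A match is a description of sequence, and binding was not measured.

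Windows of 4 members that rose in both lines are shown because they carry the element, with the match in capitals. They lie at 18:60275733-60276032 on the minus strand for Nars1, 17:15193603-15193902 on the minus strand for Iars1, 7:65023704-65024003 on the minus strand for Mars1 and 19:55908232-55908531 on the plus strand for Aars (GRCr8, RefSeq), each written 5′ to 3′ on the gene's strand.
Nars1: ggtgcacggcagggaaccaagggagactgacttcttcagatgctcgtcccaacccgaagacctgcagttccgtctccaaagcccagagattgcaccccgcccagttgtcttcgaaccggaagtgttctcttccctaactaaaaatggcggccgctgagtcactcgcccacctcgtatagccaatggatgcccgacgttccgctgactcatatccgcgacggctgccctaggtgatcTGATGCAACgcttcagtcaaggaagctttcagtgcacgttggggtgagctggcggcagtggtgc
Iars1: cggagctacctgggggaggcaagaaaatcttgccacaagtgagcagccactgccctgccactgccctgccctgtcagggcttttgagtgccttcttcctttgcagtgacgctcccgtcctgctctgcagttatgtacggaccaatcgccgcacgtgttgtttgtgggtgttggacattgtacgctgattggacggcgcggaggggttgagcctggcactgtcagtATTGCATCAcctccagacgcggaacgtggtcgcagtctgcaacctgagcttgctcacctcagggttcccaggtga
Mars1: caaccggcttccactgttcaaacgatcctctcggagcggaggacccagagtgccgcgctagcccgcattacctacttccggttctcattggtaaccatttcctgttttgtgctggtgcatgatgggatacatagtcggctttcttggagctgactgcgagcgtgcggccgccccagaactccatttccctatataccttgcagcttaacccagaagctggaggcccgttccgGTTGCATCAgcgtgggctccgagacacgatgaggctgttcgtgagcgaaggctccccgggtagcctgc
Aars: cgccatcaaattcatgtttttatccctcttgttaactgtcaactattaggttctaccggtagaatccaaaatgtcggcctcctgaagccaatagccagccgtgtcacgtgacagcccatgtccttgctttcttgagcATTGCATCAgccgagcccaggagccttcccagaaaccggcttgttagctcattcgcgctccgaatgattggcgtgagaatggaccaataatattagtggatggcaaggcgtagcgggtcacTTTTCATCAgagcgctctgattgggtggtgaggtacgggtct

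Hars1 and Hars2 start from opposite strands of a shared window, with 143 bases between their starts and 243 bases common to both promoters. In NRK-52E they had nearly the same log2 fold change, 0.52 for Hars1 and 0.48 for Hars2. The NRK-52E call of Hars2 held in 3 of 8 fits that left out 1 library, and it was lost with library totals. In NRK-49F neither gene was called (0.044 for Hars1 and 0.15 for Hars2). The interaction was called for Hars1 (0.46) and not for Hars2 (0.31). The part of the shared window in these values was not tested. The window of Hars1 (18:28672663-28672962, minus strand, GRCr8, RefSeq) is shown for this arrangement, with the bases between the starts in capitals. It has no match to the element.
Hars1: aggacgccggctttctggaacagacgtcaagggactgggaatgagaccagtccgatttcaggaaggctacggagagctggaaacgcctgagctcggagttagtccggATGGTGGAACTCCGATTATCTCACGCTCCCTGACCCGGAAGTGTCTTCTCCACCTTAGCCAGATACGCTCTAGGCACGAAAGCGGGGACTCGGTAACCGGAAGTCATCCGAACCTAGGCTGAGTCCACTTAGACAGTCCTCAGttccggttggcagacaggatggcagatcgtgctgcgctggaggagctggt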

How the data were processed

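Poly(A)-enriched RNA of 16 libraries was sequenced as paired ends. Raw fragment counts per Ensembl gene, 1 column per library, were used as the authors deposited them; they were made by mapping to rat genome rn6 and counting with featureCounts, multi-mapping fragments included. The mapper is given as tophat2 in the methods text and as HISAT2 2.1.0 in the submitters' processing notes. The counting options given set no strand, and the default ignores it. Counts were fitted over all genes of the table in R 4.3.3 with edgeR 4.0.16 (TMM, filterByExpr, quasi-likelihood test) and DESeq2 1.42.0 (Wald test), with p-values adjusted by Benjamini-Hochberg over all genes tested, on the 8 libraries of each comparison or all 16 for the interaction. A gene was called at a false discovery rate below 0.01 in both. FPM used TMM factors over all 16 libraries.

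Members and lists were chosen with earlier results of these data known, so no p-value is given for a list. Genes were named by rule: in each line and class the 3 members with the largest and the 3 with the smallest log2 fold change, their partners, Gars and Kars, and the 3 largest interactions in each direction. Others were named after their values were seen. 1 member was counted in its class and is otherwise not reported here. Alternatives were another scaling (library totals, DESeq2 size factors), other filters on low counts, each tool alone, a false discovery rate of 0.05, protein-coding genes only, all 16 libraries in 1 fit, the number in the column labels as covariate or split, leaving out Gars and Kars, and leaving out each library in turn. The pipeline was tested on simulated data. No 2 libraries of a group were copies (smallest chi-square per degree of freedom 6.12). In NRK-52E at pH 6.0 this value was 43.7 to 92.2 for pairs with N8 and 9.11 to 39.4 for the other 3 pairs.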

Additional observations from a re-analysis of the deposited data

Results flagged for a closer look

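In 5 of 112 groups of 4 values, 1 library lay far from the other 3. Chance flags about 1 in 20 such groups, here 5.6. Hars1 in NRK-52E pH 6.0 had 92.9 FPM in N8, and 98.0 to 98.8 FPM in the other 3 libraries. Nars2 in NRK-52E pH 7.4 had 8.57 FPM in N1, and 11.4 to 11.8 FPM in the other 3 libraries. Rars1 in NRK-52E pH 6.0 had 161 FPM in N8, and 143 to 145 FPM in the other 3 libraries. Vars2 in NRK-52E pH 6.0 had 14.01 FPM in N3, and 19.9 to 20.1 FPM in the other 3 libraries. Wars2 in NRK-52E pH 7.4 had 11.4 FPM in N5, and 10.1 to 10.3 FPM in the other 3 libraries.

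The pH effect differed between the lines by the interaction test in 18 members reported singly, against 19.3% higher and 17.5% lower of all genes tested. The log2 fold change in NRK-52E minus that in NRK-49F was positive for Aars (0.90), Cars (1.04), Eprs (1.13), Gars (1.69), Hars1 (0.46), Kars (1.18), Lars1 (0.70), Nars1 (1.12), Sars1 (1.13), Wars1 (0.997) and Yars1 (0.96), and negative for Aars2 (-0.68), Iars2 (-0.69), Lars2 (-1.07), Mars2 (-1.5200), Nars2 (-0.999), Vars2 (-1.07) and Yars2 (-0.79). The call of Aars2 held in 3 of 16 fits that left out 1 library.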

How the results depend on the processing

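Of 1092 values of single members under an alternative, 997 kept their direction and side of the threshold, 45 lost a call, 26 gained one, and 24 changed sign, each for a gene called under neither setting. This tally does not cover every member and comparison, and the Results name more lost calls than it counts. Within number 20, values were: cytosolic members called in NRK-49F 14, cytosolic median in NRK-49F 0.68, mitochondrial members called in NRK-49F 3, mitochondrial median in NRK-49F 0.18, Dars in NRK-49F -0.067, Farsa in NRK-49F 0.026, Kars in NRK-49F 0.046, Mars2 in NRK-49F -0.062. Within number 21, values were: cytosolic members called in NRK-49F 1, cytosolic median in NRK-49F 0.22, mitochondrial members called in NRK-49F 2, mitochondrial members called in NRK-52E 2, Ears2 in NRK-52E -0.10, Farsa in NRK-52E -0.050, Farsb in NRK-52E -0.24, Hars1 in NRK-49F -0.025, Qars1 in NRK-49F -0.037, Rars1 in NRK-52E -0.0067. With library totals, values were: cytosolic median in the interaction 0.38, cytosolic median in the lines at pH 7.4 0.40, cytosolic median in NRK-52E 0.997, mitochondrial members called in the lines at pH 7.4 11, mitochondrial median in the interaction -0.81, mitochondrial median in the lines at pH 6.0 -0.48, mitochondrial median in the lines at pH 7.4 0.44, mitochondrial median in NRK-52E -0.59, Dars in NRK-52E -0.051, Ears2 in NRK-52E -0.15, Farsa in NRK-49F 0.0044, Farsa in NRK-52E -0.16, Farsb in NRK-52E -0.12, Rars1 in NRK-52E -0.15. With all 16 libraries in 1 fit, values were: cytosolic median in the lines at pH 7.4 0.0062, mitochondrial median in the lines at pH 7.4 0.053. At a false discovery rate of 0.05, values were: mitochondrial members called in NRK-49F 10 of 17, against 6976 of the 13339 genes tested. Within number 22, values were: mitochondrial members called in NRK-52E 0, Pars2 in NRK-52E 0.19. Leaving out each library in turn, the ranges were -0.076 to 0.14 (Ears2 log2 fold change in NRK-52E), -0.12 to 0.039 (Farsa log2 fold change in NRK-49F), -0.0080 to 0.087 (Farsa log2 fold change in NRK-52E), -0.13 to 0.23 (Farsb log2 fold change in NRK-52E), -0.33 to 0.068 (Pars2 log2 fold change in NRK-52E), -0.028 to 0.076 (Qars1 log2 fold change in NRK-49F), 8 to 12 (mitochondrial members called in the lines at pH 6.0), 4 to 10 (mitochondrial members called in NRK-52E), 0.070 to 0.16 (mitochondrial median in the lines at pH 7.4), 0.19 to 0.33 (mitochondrial median in NRK-49F). Values that were not called and kept their sign also moved, over 0.083 to 0.21 (Dars in NRK-52E), -0.11 to -0.033 (Qars1 in NRK-52E), 0.0052 to 0.080 (Rars1 in NRK-52E), -0.16 to -0.017 (Rars2 in NRK-52E), -0.12 to -0.012 (Kars in NRK-49F) and -0.23 to -0.11 (Rars1 in NRK-49F). The Mars1 interaction ran over -0.048 to 0.18, and the cytosolic median of the lines at pH 7.4 over 0.022 to 0.15. The causes were not tested. The 2 libraries per group within a number give fewer degrees of freedom. No paired analysis was possible because the libraries of a group carry their own replicate numbers and the labels do not say which came from the same well.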
